A study of Amolops torrentis with 15 samples.

Results

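The myelin protein genes of the female torrent frog brain were taken as all assembled transcript features whose deposited Swiss-Prot description begins with the word Myelin. This gave 28 of 44351 features, which carry 12 of the 10546 gene symbols in the table. All 28 features had a mean of at least 1 FPKM, the authors' fragment count corrected for the size of the library and the length of the feature, and so entered the tests. No other feature carried one of the 12 symbols. The 7 features whose description begins with Myelo, such as those of myeloid proteins, were left out.

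The libraries were made from whole brains of Amolops torrentis, an anuran of fast streams, and the study asked how a female's brain responds to sexual cues that reach the ear, the eye, or both. Each of the 5 groups had 3 libraries: visual, acoustic, audiovisual, and the 2 contrast groups, dark and blank. The labels name a group by its stimulus alone, so how the contrast frogs were treated, the age of the animals and the time of sampling stay unstated. Nor do they say whether a library holds 1 brain or several, so every p-value below measures only the spread between these libraries, which may be partly technical. Totals ran from 12071194 estimated counts (dark contrast 1) to 16829356 (audiovisual 3), and log2 CPM (counts scaled to the library total) correlated at 0.931 to 0.943 between libraries. The tissue label was met by neuronal SNAP25 (mean 1351 FPKM), glial GLUL (594 FPKM) and oligodendrocyte CLDN11 (249 FPKM). Only 6 of 11 listed astrocyte and radial glia genes had a feature, and GFAP, AQP4 and VIM did not. Blood was present as well, with hemoglobin HBB at a mean of 1589 FPKM, from 899 in blank contrast 2 to 3929 in acoustic 3. Pituitary hormone transcripts varied widely, with POMC between 5.75 FPKM in visual 3 and 3825 FPKM in audiovisual 3.

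Myelin is the stacked membrane that glia wrap around axons to speed conduction. In the brain and spinal cord it is made by oligodendrocytes, with myelin basic protein joining the inner membrane faces, and in peripheral nerve it is made by Schwann cells. Several genes that carry the word myelin in their name are regulators of transcription or RNA, and some of these act mainly in neurons. The symbols described here were therefore read in 4 roles: compact myelin (MBP and PMP2), membrane glycoproteins (MAG and MPZL1), a neurite outgrowth inhibitor (FAM168B), and regulators (MYRF, MYT1, MYT1L and MYEF2).

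Most of the myelin transcript in these brains came from 1 gene. MBP averaged 2427 FPKM over the 15 libraries, against 66.2 FPKM for MAG and 36.8 FPKM for MYEF2. MYT1L and PMP2 stood at 30.0 and 30.1 FPKM and FAM168B at 21.0 FPKM. MYT1 (13.1 FPKM), MPZL1 (11.8 FPKM) and MYRF (2.91 FPKM) were lower. The single MBP feature ranked 37 of 44351 by mean FPKM. FPKM is scaled for length, so these levels can be set beside each other, but each symbol is a sum over the features that share it.

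All 28 features together held between 0.568% of the counts in audiovisual 1 (exact 95% binomial interval 0.565 to 0.572) and 0.961% in visual 1 (0.957 to 0.966). MBP alone made up 85.3% of the members' counts in audiovisual 1 (85.0 to 85.5) and 90.9% in visual 1 (90.8 to 91.1). These binomial intervals, like the other intervals of percentages below, cover counting error only, and reads are not independent molecules. The 95% intervals of fold changes below also carry the spread between libraries. Since the tissue is whole brain, fewer myelinating cells and less RNA in each cell cannot be told apart in any value given here.

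**Figure D1:**
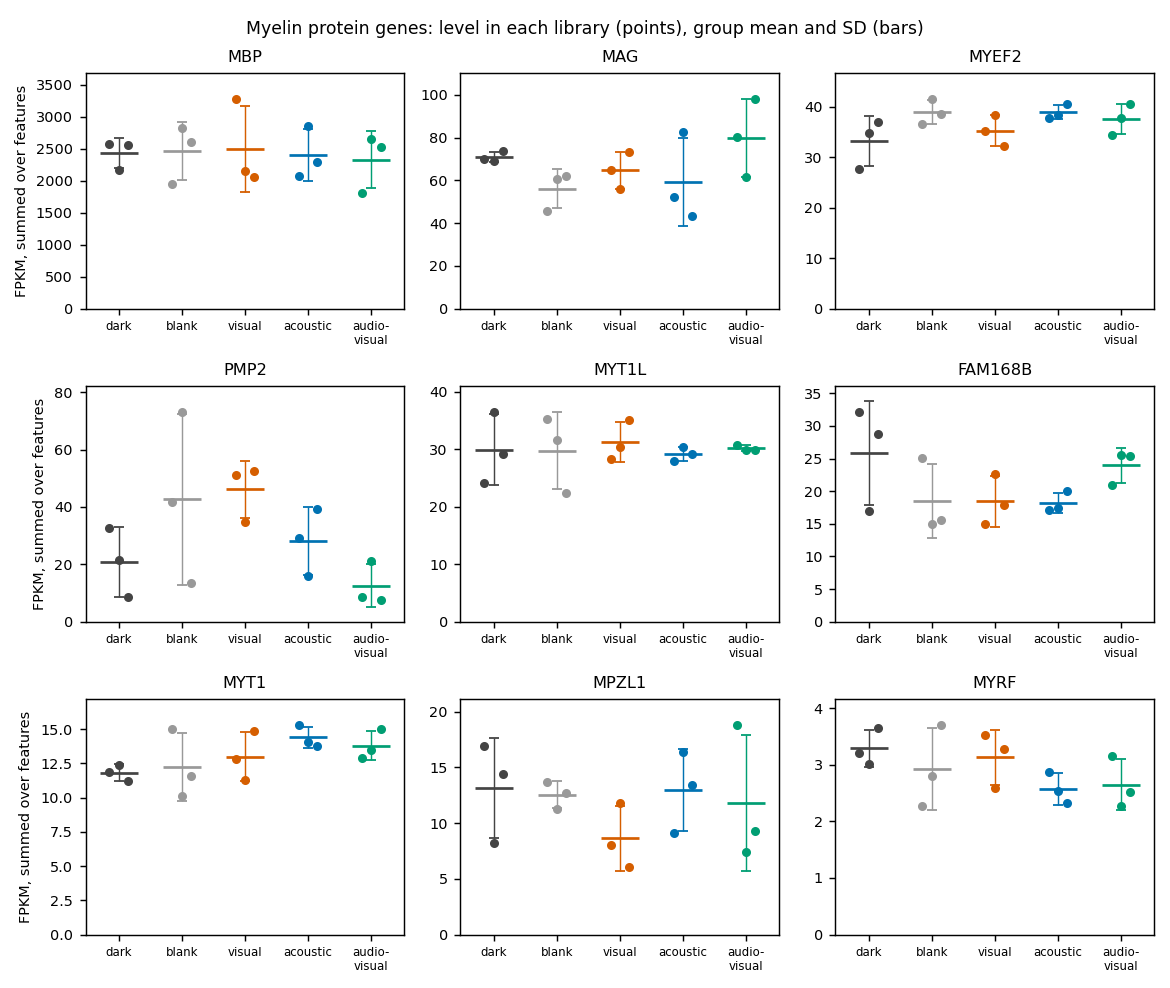
Summed FPKM (vertical axis, linear, starting at 0) of each myelin symbol described here, with 1 point per library, the group along the horizontal axis, and lines at each group's mean and SD. MBP groups average between 2332 and 2497 FPKM and overlap throughout, while PMP2 spans 7.72 to 73.0 FPKM and lies lowest in the audiovisual group.

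Across the 12 comparisons (an F test over all groups, the 10 pairs of groups, and the 3 stimulus groups against the 2 contrast groups), no myelin feature and no myelin symbol passed an adjusted p of 0.05 by edgeR's quasi-likelihood test. In each of these comparisons 0 of 28 features and 0 of 12 symbols passed, where 0% of all 42619 features and 0% of all 10309 symbols tested passed as well. The lowest adjusted p by edgeR was 0.777 for a feature and 0.792 for a symbol. DESeq2 and limma also called 0 members. Over all features these tools called a small share, given by comparison below, so 0 of 28 is no result about the members. At an unadjusted p under 0.05, edgeR gave 20 of 336 feature tests, or 5.95%, beside 4.91% of the tests of all features. It gave 4 of 144 symbol tests, or 2.78%, beside 5.08% for all symbols.

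By comparison, the F test gave 3 of 28 myelin features at an unadjusted p under 0.05 (4.74% of all features) and 0 of 12 symbols (5.02% of all symbols). Against dark contrast, 2 features were found in the acoustic group (5.11%), 1 in the visual group (5.30%) and 0 in the audiovisual group (5.23%). Against blank contrast, 1 was found in the acoustic group (4.42%), 1 in the visual group (4.66%) and 3 in the audiovisual group (4.54%). It was 1 for acoustic against visual (5.01%), 3 for audiovisual against visual (4.57%), 2 for audiovisual against acoustic (4.90%), 2 for dark against blank contrast (5.68%) and 1 for stimuli against contrasts (4.70%). All of these came from 6 features, of MYT1 (a pair of features), FAM168B, MYEF2, MAG and PMP2. The median log2 fold change of the 12 symbols lay between -0.08 and 0.07 in the pairs of groups.

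Among the compact myelin genes, MBP encodes the cytoplasmic protein that holds the inner membrane faces together. Its 1 feature, Cluster-46846.155682, is 2627 bases long, and its closest deposited protein match is the golli protein J37.1 of Xenopus laevis, a product of the larger gene unit that contains MBP. MBP stood at 2576, 2172 and 2567 FPKM in dark contrast libraries 1 to 3, at 1957, 2822 and 2605 in the blank contrast libraries, at 3272, 2155 and 2063 in the visual, at 2070, 2856 and 2288 in the acoustic, and at 1816, 2650 and 2529 in the audiovisual. The highest library was visual 1 and the lowest audiovisual 1, and every pair of groups overlapped. Group means were 2438 ± 230 FPKM (SD, n = 3 here and below) for dark contrast, 2461 ± 450 for blank contrast, 2497 ± 673 for visual, 2405 ± 406 for acoustic and 2332 ± 451 for audiovisual.

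The F test for MBP gave an edgeR adjusted p of 0.998 (unadjusted 0.992). Its fitted log2 fold changes over the 11 contrasts lay between -0.09 and 0.02, with a standard error of at most 0.206. The widest 95% intervals of those folds reached from 0.689-fold to 1.38-fold, so changes of MBP inside that range are not excluded by these libraries. The range is not a limit of detection, since passing also depends on the adjustment over all symbols. Counts behind MBP ran from 66421 to 137043 per library, so depth added little to its error beside the spread between libraries.

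PMP2 encodes the P2 protein, a fatty acid-binding protein of myelin known mainly from peripheral nerve in mammals, and it was the most variable of the 12 symbols. It stood at 32.7, 21.4 and 8.51 FPKM in the dark contrast libraries, at 41.6, 73.0 and 13.4 in the blank contrast, at 51.2, 34.6 and 52.6 in the visual, at 29.2, 15.8 and 39.4 in the acoustic, and at 8.76, 21.2 and 7.72 in the audiovisual. All 3 visual libraries lay above all 3 audiovisual libraries, and above the dark contrast libraries too. Its coefficient of variation over the 15 libraries was 63.5%, and its highest library was 9.46 times its lowest.

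PMP2 group means were 46.1 ± 10.1 FPKM in visual, 42.7 ± 29.8 in blank contrast, 28.1 ± 11.8 in acoustic, 20.9 ± 12.1 in dark contrast and 12.6 ± 7.53 in audiovisual. The audiovisual group stood at 0.262-fold of the visual group (log2 fold change -1.93, SE 0.643, 95% interval 0.10-fold to 0.684-fold, unadjusted p = 0.00979, edgeR adjusted p = 0.907). Against the blank contrast it stood at 0.283-fold (log2 -1.82, SE 0.642, unadjusted p = 0.0135, edgeR adjusted p = 0.995), and against the acoustic group at 0.421-fold (log2 -1.25, SE 0.637, edgeR adjusted p = 0.988). None of these passed, and the F test gave an edgeR adjusted p of 0.973 (unadjusted 0.0592). With audiovisual 2 left out, the first of them moved to -2.64, and with blank contrast 2 left out the second moved to -1.19 on the log2 scale. The third ranged from -1.96 without audiovisual 2 to -0.91 without acoustic 3.

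The 3 libraries with the lowest PMP2 (audiovisual 3, dark contrast 3 and audiovisual 1) were also the 3 lowest for transferrin, an iron carrier made by oligodendrocytes in mammals, an overlap noticed after the values were seen. Transferrin stood at 125, 75.4 and 62.2 FPKM there and at 265 to 809 FPKM in the other 12 libraries. Other genes of oligodendrocytes differed in direction in the same libraries. CLDN11 stood at 192, 207 and 226 FPKM (mean of all libraries 249) and MBP at 2529, 2567 and 1816 (mean 2427). MAG stood at 97.8, 73.6 and 80.1 FPKM (mean 66.2). The summed FPKM of the oligodendrocyte list, whose most abundant gene is transferrin, ran from 952 to 1793 in the audiovisual libraries and from 1521 to 1736 in the visual libraries. The pituitary list was highest in audiovisual 3, at 6963 FPKM. The part of these in the PMP2 values was not tested.

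Most PMP2 counts came from the feature Cluster-46846.77051 (885 bases, closest to peripheral myelin protein 2 of Xenopus tropicalis), which ranged 17.0-fold, from 3.80 FPKM in audiovisual 1 to 64.5 in blank contrast 2. The other, Cluster-46846.81133, is closest to an adipocyte fatty acid-binding protein of Rana catesbeiana, so its place under PMP2 is uncertain. That feature averaged 4.52 FPKM, and made up 3.13% of PMP2 counts in acoustic 3 (exact interval 1.68 to 5.30) and 49.4% in audiovisual 1 (38.4 to 60.5).

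**Figure D2:**
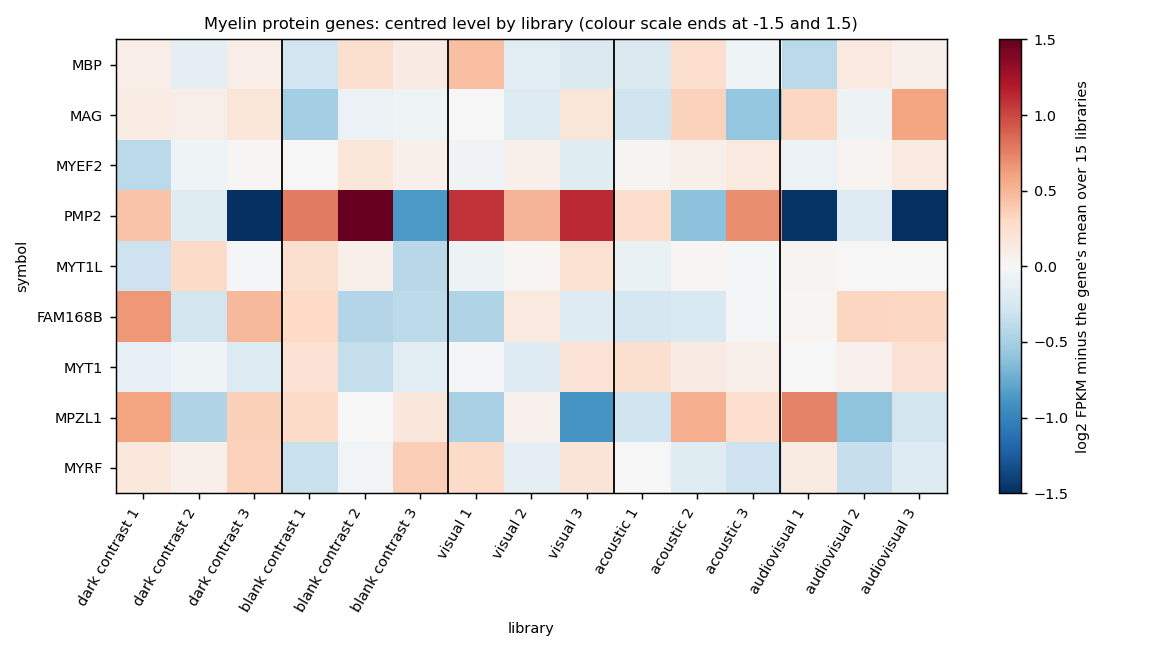
Level of each myelin symbol described here (rows) in each library (columns, in group order) as the difference of log2 values from that symbol's mean over the 15 libraries, with the colour scale cut at 1.5 on either side. PMP2 shows the widest differences, and there is no group in which most of the symbols drawn are high or low together.

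Of the membrane glycoproteins, MAG is a receptor-like lectin of the innermost myelin wrap that faces the axon. MAG stood at 70.1, 69 and 73.6 FPKM in the dark contrast libraries, at 45.5, 60.7 and 61.8 in the blank contrast, at 64.7, 56.1 and 73.2 in the visual, at 52.4, 82.5 and 43.3 in the acoustic, and at 80.1, 61.6 and 97.8 in the audiovisual. The dark contrast libraries lay close together and above all blank contrast libraries, while the audiovisual libraries overlapped the blank contrast by a narrow margin. The audiovisual mean was 79.8 ± 18.1 FPKM and the blank contrast mean 56 ± 9.07 FPKM.

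That MAG difference was 1.46-fold (log2 0.55, SE 0.224, 95% interval 1.05-fold to 2.05-fold, unadjusted p = 0.0285, edgeR adjusted p = 0.995), and dark contrast stood at 1.31-fold of blank contrast (log2 0.39, SE 0.224, edgeR adjusted p = 0.814). Neither passed, and in the F test MAG had an edgeR adjusted p of 0.973 (unadjusted 0.161). MAG and PMP2 tended to opposite ends of their ranges, with r = -0.634 over the 15 libraries.

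MPZL1 encodes an immunoglobulin-like cell surface glycoprotein that binds a tyrosine phosphatase in mammals, and it is not a structural myelin protein. It stood at 16.9, 8.20 and 14.4 FPKM in the dark contrast libraries, at 13.7, 11.3 and 12.7 in the blank contrast, at 8.03, 11.8 and 6.08 in the visual, at 9.13, 16.4 and 13.4 in the acoustic, and at 18.8, 7.41 and 9.31 in the audiovisual. The lowest library was visual 3 and the highest audiovisual 1, and none of the pairs of groups was free of overlap. The acoustic group stood at 1.55-fold of the visual group (log2 0.63, SE 0.368, edgeR adjusted p = 0.989), and the visual group at 0.678-fold of the blank contrast (log2 -0.56, SE 0.369, edgeR adjusted p = 0.999).

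FAM168B encodes a neuronal membrane protein that inhibits neurite outgrowth in mammals. It stood at 32.1, 16.9 and 28.7 FPKM in the dark contrast libraries, at 25.1, 15 and 15.6 in the blank contrast, at 14.9, 22.6 and 17.9 in the visual, at 17.1, 17.5 and 20.0 in the acoustic, and at 20.9, 25.6 and 25.4 in the audiovisual. All audiovisual libraries lay above all acoustic libraries, and the dark contrast libraries were spread over nearly the whole range. The visual group stood at 0.702-fold of the dark contrast (log2 -0.51, SE 0.253, edgeR adjusted p = 0.859), and in the F test FAM168B had an edgeR adjusted p of 0.973 (unadjusted 0.195).

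The less abundant FAM168B feature, Cluster-46846.145860, had the lowest unadjusted p of the 28 features and is named after its values were seen. It stood at 7.36, 5.31 and 7.62 FPKM in the dark contrast libraries and at 2.66, 0.95 and 2.76 FPKM in the acoustic libraries, which did not overlap. The difference was 0.317-fold (log2 -1.66, SE 0.418, 95% interval 0.170-fold to 0.590-fold, unadjusted p = 0.00143, edgeR adjusted p = 0.893). Its counts were 13 to 95 per library, and its closest deposited protein match comes from a gar, a ray-finned fish.

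Of the regulators, MYRF encodes the transcription factor that starts the myelin programme as oligodendrocytes mature. It was the least abundant symbol, at 2.27 FPKM in audiovisual 2 to 3.70 FPKM in blank contrast 3, from 89 to 165 counts per library. The acoustic libraries (2.88, 2.53 and 2.32 FPKM) all lay below the dark contrast libraries (3.20, 3.02 and 3.65 FPKM), a difference that did not pass (log2 -0.41, SE 0.238, edgeR adjusted p = 0.912).

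MYT1 encodes a zinc finger factor of neural progenitors and the oligodendrocyte lineage. It stood at 11.9, 12.4 and 11.2 FPKM in the dark contrast libraries, at 15, 10.1 and 11.6 in the blank contrast, at 12.8, 11.3 and 14.9 in the visual, at 15.3, 14.1 and 13.8 in the acoustic, and at 12.9, 13.5 and 15 in the audiovisual. The acoustic and the audiovisual libraries all lay above the dark contrast libraries, while the blank contrast libraries held both the lowest value and one near the highest. The acoustic group stood at 1.18-fold of the blank contrast (log2 0.23, SE 0.149, edgeR adjusted p = 0.999), and the 3 stimulus groups together at 1.14-fold of the contrast groups (log2 0.18, SE 0.0965, edgeR adjusted p = 0.998).

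MYT1L is its relative in neurons, where it represses genes of other cell fates. It stood at 24.1, 36.4 and 29.2 FPKM in the dark contrast libraries, at 35.3, 31.5 and 22.4 in the blank contrast, at 28.2, 30.3 and 35.0 in the visual, at 27.9, 30.4 and 29.2 in the acoustic, and at 30.7, 29.8 and 29.9 in the audiovisual. The groups overlapped throughout, and the audiovisual libraries were the closest together, at 30.1 ± 0.520 FPKM. Its log2 fold changes were -0.10 to 0.09, and its widest 95% intervals reached 0.739-fold and 1.35-fold (edgeR, lowest unadjusted p = 0.541).

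MYEF2 encodes an RNA- and DNA-binding protein known in mouse as a repressor of MBP transcription. It stood at 27.7, 34.9 and 37.1 FPKM in the dark contrast libraries, at 36.7, 41.5 and 38.7 in the blank contrast, at 35.3, 38.5 and 32.2 in the visual, at 37.8, 38.5 and 40.5 in the acoustic, and at 34.5, 37.8 and 40.5 in the audiovisual. Its coefficient of variation, 9.64%, was the smallest of the 12 symbols, and the acoustic libraries lay above the dark contrast libraries by a narrow margin.

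Against the dark contrast, MYEF2 stood at 1.17-fold in the acoustic group (log2 0.23, SE 0.104, unadjusted p = 0.0461, edgeR adjusted p = 0.912) and at 1.12-fold in the audiovisual group (log2 0.17, SE 0.104, edgeR adjusted p = 0.853). The dark contrast stood at 0.867-fold of the blank contrast (log2 -0.21, SE 0.104, edgeR adjusted p = 0.792). All 3 of these share the dark contrast libraries. With dark contrast 1, its lowest library, left out, they moved to 0.13, 0.06 and -0.11 on the log2 scale.

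**Figure D3:**
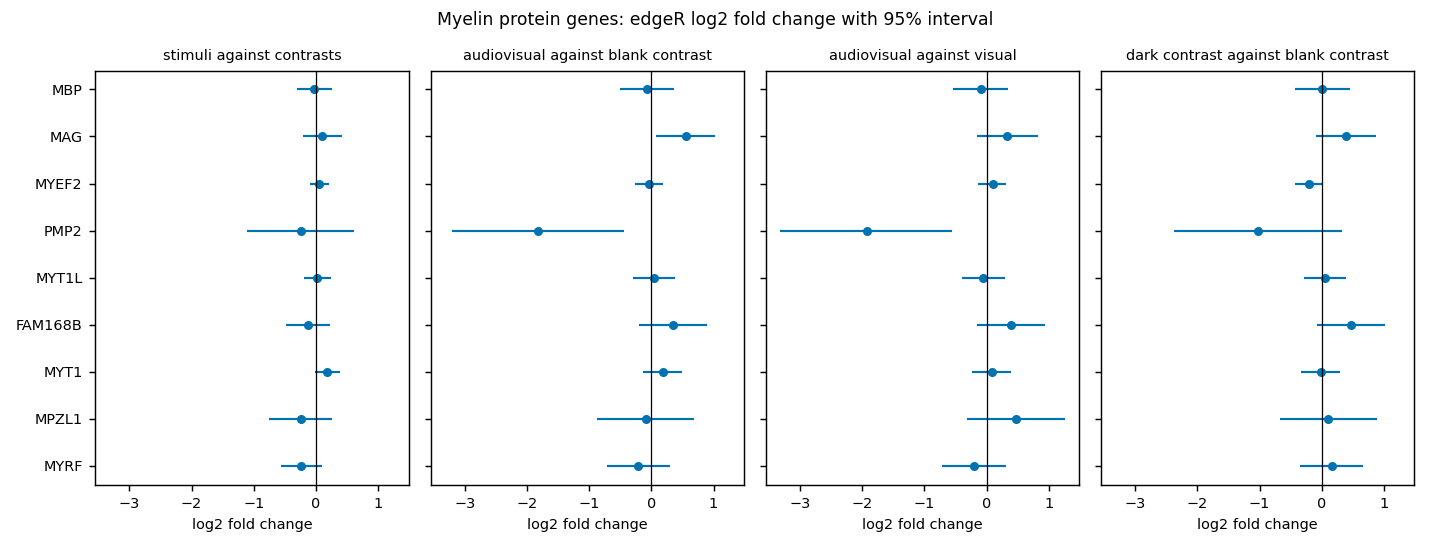
Fitted log2 fold change (horizontal axis) with its 95% interval for each myelin symbol described here (vertical axis), in 4 comparisons: stimuli against contrasts, audiovisual against blank contrast, audiovisual against visual, and dark against blank contrast. Of the symbols drawn, MYEF2, MYT1 and MYT1L have the narrowest intervals and PMP2 the widest. The fitted values of MBP lie between -0.09 and 0.02, and no symbol passes an edgeR adjusted p of 0.05.

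Counts of symbols whose libraries did not overlap between 2 groups stayed near the share found for all symbols in most pairs. Against the dark contrast, 4 of 12 symbols did not overlap in the acoustic group, among them MYEF2, MYRF and MYT1, where 9.62% of all symbols did not. For the visual group it was 1 symbol (PMP2, background 9.87%), and for the audiovisual group 1 symbol (MYT1, background 10.2%). No test was made of the count of 4, and the members of this list are not independent of each other.

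Against the blank contrast, 0 of 12 symbols were free of overlap in the acoustic (background 9.45%), visual (9.56%) and audiovisual (9.73%) groups. Between the stimulus groups, the count was 0 for acoustic against visual (10.5%), 1 for audiovisual against visual (PMP2, 9.55%) and 1 for audiovisual against acoustic (FAM168B, 9.75%). Between the contrast groups it was 1 (MAG, 11.2%). At an unadjusted edgeR p under 0.05, 1 symbol was found for acoustic against dark contrast (MYEF2, background 5.41%), 2 for audiovisual against blank contrast (MAG and PMP2, 4.52%) and 1 for audiovisual against visual (PMP2, 4.66%). It was 0 for visual and audiovisual against dark contrast (6.05% and 5.75% of all symbols), for acoustic and visual against blank contrast (4.39% and 4.30%), for acoustic against visual (4.89%), for audiovisual against acoustic (5.06%), for dark against blank contrast (6.40%) and for stimuli against contrasts (4.55%).

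A second layer of variation lay in how a symbol's counts were divided between its features. The longer MAG feature, Cluster-46846.148010, took between 48.9% of MAG counts in blank contrast 2 (47.0 to 50.8) and 84.8% in dark contrast 3 (83.4 to 86.0). It stood at 53.6 ± 12.5 FPKM in the audiovisual group and 31.2 ± 8.26 in the blank contrast. The other MAG feature stood at 26.2 ± 6.53 and 24.8 ± 8.05 FPKM in the same groups. For MYRF, with far fewer counts, Cluster-46846.172100 took 19.7% in audiovisual 3 (13.6 to 27.1) and 80.9% in audiovisual 2 (71.2 to 88.5).

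In MYEF2, Cluster-46846.161771 took 48.2% of the counts in audiovisual 3 (46.5 to 50.0) and 87.1% in blank contrast 3 (85.7 to 88.5). This feature, also named after its values were seen, stood at 30.1, 28.4 and 33.8 FPKM in the blank contrast libraries and at 23.4, 19.3 and 20.2 FPKM in the dark contrast libraries. Its blank contrast libraries lay above those of every other group. The dark contrast stood at 0.677-fold of the blank contrast (log2 -0.56, SE 0.142, unadjusted p = 0.00144, edgeR adjusted p = 0.777), the lowest adjusted p of any myelin feature.

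The other MYEF2 feature, Cluster-46846.150076, was on average lowest in the blank contrast, at 8.23 ± 4.34 FPKM, beside 12.3 ± 6.94 in dark contrast and 15.7 ± 4.48 in audiovisual. The 2 features are of like length, 4184 and 4259 bases, and their sum differed less between groups than either alone. The sources do not say how reads that match both were assigned, and the level of a single feature may therefore misstate that of the gene.

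Among the 3 MYT1 features, Cluster-46846.168263 stood at 5.45 ± 0.620 FPKM in acoustic and 5.15 ± 0.602 in visual, and at 3.50 ± 0.612, 3.79 ± 1.10 and 3.60 ± 0.304 in dark contrast, blank contrast and audiovisual. For acoustic against dark contrast it had a log2 fold change of 0.65 (SE 0.239, unadjusted p = 0.0165, edgeR adjusted p = 0.973). For audiovisual against visual, the MYT1 feature Cluster-46846.168262 had a log2 fold change of 1.02 (SE 0.368) and Cluster-46846.168263 one of -0.52 (SE 0.238), neither of which passed. MYT1L was spread over 8 features from 652 to 5289 bases, the shortest with a mean of 7 counts, and the most abundant averaged 8.50 FPKM.

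**Figure D4:**
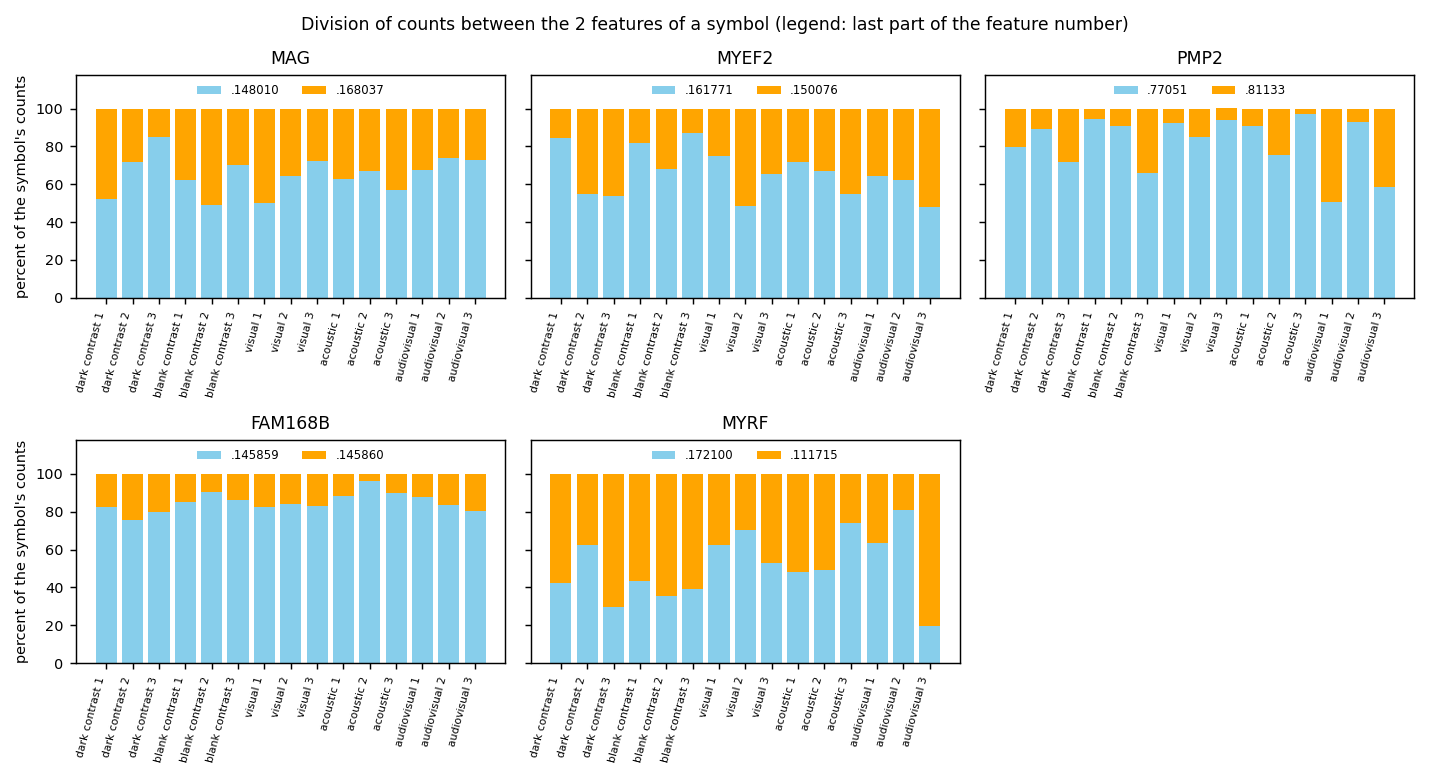
Percent of a symbol's estimated counts (vertical axis, 0 to 100) carried by each of its 2 features in every library, for MAG, MYEF2, PMP2, FAM168B and MYRF. The longer MAG feature takes 48.9% in blank contrast 2 and 84.8% in dark contrast 3, and MYRF runs from 19.7% to 80.9% within the audiovisual group.

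Across libraries, MBP was only loosely tied to MAG, MYEF2 and PMP2. Over log2 CPM in the 15 libraries, MBP with MAG gave a Pearson r of 0.187 (Spearman 0.161), MBP with MYEF2 0.158, MBP with PMP2 0.121, and MBP with MYT1L -0.448. The opposed pair of MAG and PMP2, at -0.634, had the most negative r among all pairs of the 6 most abundant symbols. Its r was -0.509 without the 2 libraries farthest from the MAG median, and -0.522 over deviations from group means. All points share the libraries' scaling, and no p is given.

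CLDN11, which encodes the tight junction claudin of oligodendrocytes, correlated with MBP at 0.426. Over the 10 most abundant genes of the oligodendrocyte list, r with MBP ran from -0.391 (LINGO1) to 0.600 (CD9). Acoustic 2 and acoustic 1 were the highest and the lowest of the 15 libraries for CLDN11. Acoustic 2 held 2.60 times as much CLDN11 as acoustic 1, 1.38 times as much MBP and 1.58 times as much MAG. Among the other abundant genes of the oligodendrocyte list, ERMN (ratio 1.65), CNP (1.55), CA2 (1.16), CD9 (1.15) and SIRT2 (1.07) were also higher in acoustic 2. The rest were lower in acoustic 2 than in acoustic 1, with ratios of 0.543 for transferrin, 0.865 for NINJ2, 0.888 for FA2H and 0.928 for LINGO1.

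**Figure D5:**
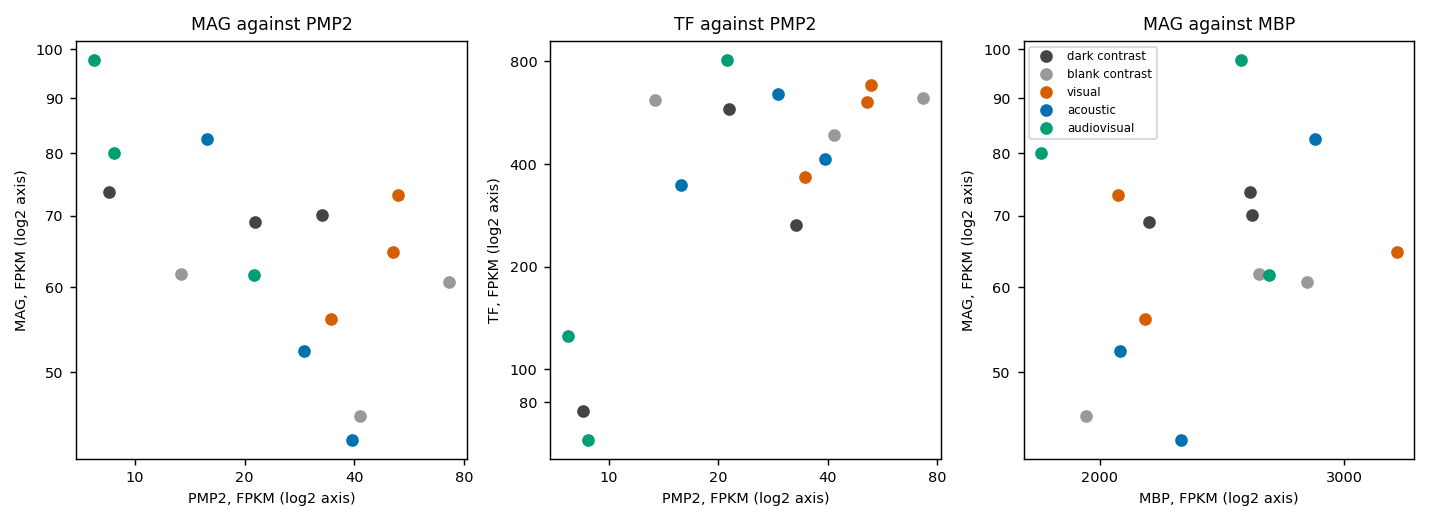
FPKM of MAG and transferrin (TF) against that of PMP2 (horizontal axis), and of MAG against MBP, all on log2 axes, with 1 point per library coloured by group. MAG tends to be high where PMP2 is low (r = -0.634, n = 15), the 3 libraries lowest in PMP2 are the 3 lowest in TF, and MAG and MBP show little relation (r = 0.187).

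Of 17922 symbol-carrying features outside the members, the 5 most like MBP by Pearson r were MAP7 (0.824), R3HCC1 (0.803), GAL3ST1 (0.794), ZC3H7B (0.770) and a feature of anillin, ANLN (0.764). GAL3ST1 makes sulfatide, a lipid of myelin, and anillin is a scaffold of the cell cortex. All 5 were of low level, with means from 1.74 FPKM (ANLN) to 6.83 FPKM (R3HCC1) and 2.09 FPKM for GAL3ST1. Without the 2 farthest libraries, r was 0.662 for GAL3ST1 and 0.709 to 0.863 for the others. The middle 90% of all 17922 features had r between -0.451 and 0.415. The 5 were picked as the highest of all these values over only 15 libraries. Setting them beside that range is therefore no test of a tie to MBP.

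In the list of oligodendrocyte lineage and myelin formation genes, 26 of 36 genes had a feature, and 0 of their 36 features passed in any comparison by edgeR. Counts above and below 0 were 18 and 18 for the stimulus groups against the contrasts, with a median log2 fold change of -0.00044. They were 12 and 24 for audiovisual against visual (median -0.15), 11 and 25 for acoustic against visual (median -0.14) and 21 and 15 for visual against dark contrast (median 0.15). These last 3 comparisons share the visual libraries, as does visual against blank contrast. In the other 7 pairs of groups the medians lay between -0.04 (acoustic against blank contrast, 17 above and 19 below) and 0.08 (visual against blank contrast, 21 and 15). Over all features the medians for audiovisual against visual, acoustic against visual and visual against dark contrast were 0.00022, 0.01 and -0.0024. The share of all features above 0 was 49.8% for the stimulus groups against the contrasts, and 50.0%, 50.8% and 49.7% for those 3.

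By level, transferrin led that list at 447 FPKM, followed by CLDN11 at 249, carbonic anhydrase CA2 at 167, the tetraspanin CD9 at 86.9 and NINJ2 at 64.8 FPKM. LINGO1, a brake on oligodendrocyte maturation in rodents, stayed between 54.0 and 62.4 FPKM in all 15 libraries. CNP (50.6 FPKM), ERMN (42.5 FPKM), SIRT2 (40.5 FPKM) and FA2H (30.2 FPKM), which hydroxylates fatty acids of myelin lipids, completed the 10 most abundant.

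In 3 further lists, and in the marker lists of neurons, astrocytes, microglia, blood, muscle, pituitary and choroid plexus, no feature passed in any comparison by edgeR either. For the stimulus groups against the contrasts, Schwann cell and peripheral nerve genes (9 of 16 genes with a feature) had 7 features above and 6 below 0. The same list had 1 above and 12 below for audiovisual against blank contrast (median log2 fold change -0.14), and 2 above and 11 below for dark against blank contrast (median -0.27), which share the blank contrast libraries. Over all features 49.5% and 50.0% were above 0 in these comparisons. In the other pairs the medians of this list lay between -0.12 (audiovisual against acoustic, 3 above and 10 below) and 0.13 (acoustic against visual, 8 and 5). It had 10 above and 3 below for acoustic against dark contrast, and 7 and 6 for acoustic against blank contrast. Genes of the node and paranode of the axon (15 of 15) were tested as 55 features. For the stimulus groups against the contrasts, they had 39 above and 16 below (median log2 fold change 0.04), where 49.8% of all features were above 0. Their medians ran from -0.10 (dark against blank contrast) to 0.15 (visual against dark contrast) in the pairs of groups. Against the dark contrast, they had 38 above and 17 below for acoustic, 41 and 14 for visual, and 39 and 16 for audiovisual. The shares of all features above 0 were 50.6%, 49.7% and 49.5%. Against the blank contrast, the counts were 26 and 29, 29 and 26, and 31 and 24 in the same order. Dark against blank contrast gave 17 above and 38 below (50.0% of all features above 0). It shares the dark contrast libraries with the comparisons against the dark contrast. The neuron list, tested as 27 features, had 20 above and 7 below for the stimulus groups against the contrasts (median 0.08). Against the dark contrast it had 15 and 12 for acoustic, 17 and 10 for visual, and 18 and 9 for audiovisual. Cholesterol synthesis genes (16 of 19) supply the main lipid of myelin. They had 13 above and 20 below for the stimulus groups against the contrasts, with a median of -0.09. Their medians in the pairs ran from -0.21 (acoustic against visual) to 0.11 (visual against dark contrast).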

How the data were processed

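Estimated counts per assembled feature and FPKM were deposited by the authors, per the file headers. The table also gives each feature's length in bases. Which assembler, aligner and counter were used is not given in the sources here, and features have no genome position. Counts (57.4% whole to within 1e-06) were rounded, and summed per symbol in capitals.

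Features with a mean of at least 1 FPKM were kept (42619 features, 10309 symbols), scaled by TMM and fitted in all 5 groups (10 residual degrees of freedom) with edgeR 4.0.16 in R 4.3.3. Benjamini-Hochberg adjustment ran over all features, or all symbols, within a comparison. The SE is approximate: the size of the log2 fold change over the root of its F statistic. Alternatives used DESeq2 1.42.0, limma 3.58.1, other filters and left-out libraries. The fit was tested on simulated data with the same spread for all features and changes set in features of higher counts only. That test does not cover features with few counts or changes as small as most of those given here. Nor does it cover features as variable between libraries as those of PMP2.

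Fold changes are named for the symbol with the smallest p per comparison and for 3 symbols in the F test. Fold changes of MAG, MYRF and single features were added with their values already known, beyond that choice. Members, lists and rules were chosen with earlier results of these data known. Some members are counted but not reported here.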

Additional observations from a re-analysis of the deposited data

How the results depend on the processing

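No myelin feature or symbol passed an adjusted p of 0.05 under any of 23 other settings, including 15 that leave out 1 library each. The lowest was an adjusted p of 0.0644 by DESeq2 for the less abundant FAM168B feature in acoustic against dark contrast, and 0.223 by DESeq2 for PMP2 in audiovisual against visual. The fold changes of the symbols with the smallest p in each comparison kept their direction in these settings; those of MAG, MYRF and single features were not recomputed for direction. PMP2 in audiovisual against blank contrast ranged from -2.54 to -1.19 with libraries left out, and in audiovisual against visual from -2.64 to -1.66. Another summing of features into symbols, added after the data were seen, called 0 members.

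Counts over all features, 0 of 42619 by edgeR, did depend on the tool. DESeq2 called 206 features in the F test, 35, 36 and 30 in the acoustic, visual and audiovisual groups against dark contrast, 33, 27 and 32 against blank contrast, 27 in acoustic against visual, 20 in audiovisual against visual, 35 in audiovisual against acoustic, 38 in dark against blank contrast and 17 for stimuli against contrasts; the cause was not tested. Limma on log2(FPKM + 0.1) called 1 in the F test, in dark against blank contrast and in each stimulus group against blank contrast. With only the 2 groups in the fit, 1 was called in acoustic against dark contrast and in audiovisual against visual. With 1 library left out, counts ran from 0 to 2 in the F test and in the visual and audiovisual groups against dark contrast, and from 0 to 1 in the other comparisons.

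Over all features, no pairing of libraries by sample number was seen. The 30 same-numbered pairs correlated at -0.0350 to 0.0429 in their deviations from group means, beside -0.0686 to 0.0485 for 60 other-numbered pairs. Pairing that acts on few genes cannot be seen in this way. With the replicate number as a block, 0 features were called.

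Depth limits MYRF and the minor FAM168B and MYT1L features, which rest on few counts. Counts were also modest for PMP2, with 67 to 728 per library, and MPZL1, with 70 to 278. For these symbols the spread between libraries was the larger part of the error. Beyond counting error it was fitted as a coefficient of variation of 0.518 for PMP2 and 0.312 for MPZL1.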

Other observations

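Some features with a myelin match fall outside the rule, since their Swiss-Prot description is empty or begins with another word. OMG, the oligodendrocyte-myelin glycoprotein, averaged 21.9 FPKM, from 16.6 in acoustic 1 to 27.5 in acoustic 2. The features of PMP22, the peripheral myelin protein, averaged 12.4 and 3.93 FPKM. The former ran from 3.31 FPKM in audiovisual 3 to 19.1 in acoustic 2. Features with only a nucleotide match to MYT1L of the budgerigar averaged 47.2 and 37.3 FPKM, each more than the 30.0 FPKM of the 8 MYT1L features together. They have no protein match, so their gene is uncertain. A feature with a like nucleotide match, to the turkey, has the protein match GATAD2A instead.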
